A study of Homo sapiens with 6 samples.

Results

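Histone chaperones are proteins that bind histones away from DNA and hand them on for nucleosome assembly. The 10 examined here were ASF1A, ASF1B, CHAF1A, CHAF1B, NASP, HIRA, UBN1, DAXX, ATRX and HJURP, taken by gene symbol from a table of 62754 genes. All 10 passed the filter on low values that left 17951 genes for testing. Expression was measured by bulk RNA-seq of poly(A)-enriched RNA in HPNE hTERT, a human pancreatic cell line that is non-malignant, carries telomerase for immortality and is described in the labels as ductal epithelium. The cells were treated for 4 days with FOLFIRINOX, a chemotherapy combination given here as oxaliplatin at 5 µM, SN-38 (the active form of irinotecan) at 25 nM and 5-fluorouracil at 10 µM, which the protocol describes as inducing senescence. Vehicle cells received DMSO and were also collected on day 4. Each treatment had 3 libraries, which the table names P14, P15 and P19 in both groups. The labels describe 1 cell line and do not say whether the libraries came from separate cultures, so each p-value reflects no more than how far these libraries spread.

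ASF1 receives newly made H3-H4 dimers and passes them to the depositing complexes. CAF-1, whose subunits include the products of CHAF1A and CHAF1B, places H3.1-H4 on newly replicated DNA, and NASP keeps a soluble reserve of H3-H4. The HIRA complex, which includes UBN1, deposits the variant H3.3 independently of replication, and DAXX with the remodeller ATRX deposits H3.3 at telomeres and other repeats. HJURP places the centromeric H3 variant CENP-A at centromeres.

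The promoters of 8 members were found in a RefSeq table for GRCh38.p14, which gives 250 bases before and 50 bases after each gene's start. They are shown for the 2 ASF1 paralogs, whose values parted, for the 2 CAF-1 subunits, whose values moved by about the same amount, and for HJURP. The ASF1B promoter is chr19:14136540-14136839 (minus strand), the ASF1A promoter is chr6:118893902-118894201 (plus strand), the CHAF1A promoter is chr19:4402390-4402689 (plus strand), the CHAF1B promoter is chr21:36385142-36385441 (plus strand) and the HJURP promoter is chr2:233854486-233854785 (minus strand). Each sequence reads 5′ to 3′ in the direction of transcription. Capitals mark matches, on either strand, to TTTGAA (the core letters of the cell cycle genes homology region), to the E2F-type letters TTTCGCGC, TTTGGCGC, TTTCCCGC or TTTGGCGG, and to CCAAT, the letters bound by NF-Y.
ASF1B: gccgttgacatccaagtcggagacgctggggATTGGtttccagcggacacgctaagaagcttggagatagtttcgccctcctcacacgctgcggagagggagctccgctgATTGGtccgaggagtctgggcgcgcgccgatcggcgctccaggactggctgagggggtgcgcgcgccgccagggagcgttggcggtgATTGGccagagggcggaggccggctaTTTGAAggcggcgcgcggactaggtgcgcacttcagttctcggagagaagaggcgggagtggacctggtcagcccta
ASF1A: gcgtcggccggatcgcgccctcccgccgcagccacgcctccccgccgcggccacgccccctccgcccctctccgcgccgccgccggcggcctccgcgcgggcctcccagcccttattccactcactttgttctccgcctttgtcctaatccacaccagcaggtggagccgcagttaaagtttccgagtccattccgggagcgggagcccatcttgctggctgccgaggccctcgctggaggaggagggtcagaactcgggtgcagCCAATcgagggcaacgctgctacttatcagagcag
CHAF1A: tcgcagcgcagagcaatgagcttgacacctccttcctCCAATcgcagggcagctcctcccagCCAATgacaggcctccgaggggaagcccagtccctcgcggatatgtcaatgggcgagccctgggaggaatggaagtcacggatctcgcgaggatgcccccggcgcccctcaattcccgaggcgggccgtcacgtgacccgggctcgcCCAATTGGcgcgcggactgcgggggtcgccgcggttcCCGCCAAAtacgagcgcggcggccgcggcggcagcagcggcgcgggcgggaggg
CHAF1B: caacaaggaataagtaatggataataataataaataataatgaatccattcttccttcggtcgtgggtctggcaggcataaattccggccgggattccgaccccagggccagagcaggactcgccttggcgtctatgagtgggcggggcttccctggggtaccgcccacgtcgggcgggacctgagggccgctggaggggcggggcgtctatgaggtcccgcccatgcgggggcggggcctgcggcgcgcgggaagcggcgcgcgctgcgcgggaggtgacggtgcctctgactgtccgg
HJURP: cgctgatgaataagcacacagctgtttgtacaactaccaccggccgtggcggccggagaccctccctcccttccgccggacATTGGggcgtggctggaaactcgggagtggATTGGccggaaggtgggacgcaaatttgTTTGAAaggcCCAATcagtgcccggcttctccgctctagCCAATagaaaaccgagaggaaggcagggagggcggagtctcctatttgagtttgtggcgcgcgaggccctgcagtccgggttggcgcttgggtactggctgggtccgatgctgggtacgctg
The ASF1B promoter held TTTGAA 27 bases before the start and CCAAT letters 3 times, all on the opposite strand. The ASF1A promoter held CCAAT once, 16 bases after the start. The HJURP promoter held TTTGAA 111 bases before the start and CCAAT letters 4 times. The CHAF1A promoter held TTTGGCGG on the opposite strand 4 bases before the start and CCAAT letters 4 times, of which 2 overlap in the palindromic letters CCAATTGG. The CHAF1B promoter held none of these motifs, which were searched as exact letters only, so near variants were not counted. Among the other members with a promoter in the table, HIRA held TTTCCCGC and NASP held CCAAT once. UBN1 has 2 promoters in the table, 1 with CCAAT letters 2 times and the other with TTTGAA. Of 35116 promoters of the same length, 15.2% held TTTGAA, 3.35% held at least 1 of the E2F-type motifs (0.515% TTTCGCGC, 0.652% TTTGGCGC, 1.63% TTTCCCGC and 0.652% TTTGGCGG), and 34.6% held CCAAT. These matches describe letters only and do not show that a factor is bound.

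Library totals were 83981154 to 91992824 reads with FOLFIRINOX and 86435436 to 97762802 reads with vehicle. Mitochondrial rRNA took 1.18% to 2.74% of reads with FOLFIRINOX and 0.552% to 0.864% with vehicle, and its part in the members' differences was not tested. MKI67, a proliferation marker, averaged 30.2 ± 6.65 normalized reads with FOLFIRINOX and 13874 ± 3569 with vehicle, and CDKN1A, the gene of the cell cycle inhibitor p21, averaged 203806 ± 27900 with FOLFIRINOX and 22156 ± 4997 with vehicle (SD, n = 3 each). Among markers of the labelled cell type, KRT18 had 6758 to 7476 normalized reads with FOLFIRINOX and 8878 to 10594 with vehicle, KRT8 had 1152 to 1437 with FOLFIRINOX and 1382 to 2091 with vehicle, and KRT7 had 65.4 to 144 with FOLFIRINOX and 116 to 209 with vehicle. The ductal transcription factor gene SOX9 had 739.6 to 844 with FOLFIRINOX and 1392 to 1817 with vehicle, and CDH1 had 55.1 to 73.0 with FOLFIRINOX and 43.5 to 62.6 with vehicle. The ductal keratin KRT19 had 3.7 to 17.7 with FOLFIRINOX and 2.0 to 4.2 with vehicle. EPCAM was at 0 in 5 of the 6 libraries, and the mesenchymal filament gene VIM had 259737 to 290561 normalized reads with FOLFIRINOX and 459286 to 559069 with vehicle. The leukocyte gene PTPRC had 4.1, 3.9 and 35.5 normalized reads with FOLFIRINOX and 0 in all 3 vehicle libraries.

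With FOLFIRINOX, 5 of the 10 chaperones fell and none rose at an adjusted p under 0.05 (limma on log2 values, Benjamini-Hochberg over all genes tested). The 5 were ASF1B and HJURP, which were nearly lost, CHAF1A and CHAF1B, which fell about equally, and NASP, which fell least. ASF1A and UBN1 did not pass the test in any of the fits run, while HIRA, DAXX and ATRX passed only where the P number entered the fit as a block or, for ATRX, where the vehicle P19 library was left out. In all genes tested, 23.6% were called, 11.4% higher and 12.2% lower. This is 2047 genes higher and 2191 lower, a split that moved to 2693 higher and 1696 lower when libraries were scaled to a common total, while the members stayed at 0 higher and 5 lower. Both edgeR's quasi-likelihood test and DESeq2 also called 0 members higher and 5 lower. At an unadjusted p under 0.05, each of the 3 tools gave 0 members higher and 7 lower. Over all genes, that threshold gave 3275 higher and 3233 lower of 17951 by limma, and 2949 and 3545 of 17951 by edgeR. DESeq2 gave 3571 higher and 3289 lower of 23247 genes. In bulk RNA, fewer cells of a type and less RNA per cell cannot be told apart. The libraries with the same P number deviated together, and with the P number as a block 1 member was called higher and 7 lower, where 44.1% of all genes were called, 22.3% higher and 21.8% lower. The 2 groups of libraries did not overlap for 7 of the 10 members, against 39.5% of all genes tested. The median log2 difference was -0.70 over the members and 0.02 over all genes tested, for which the 5th and 95th percentiles were -1.25 and 1.47.

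**Figure D1:**
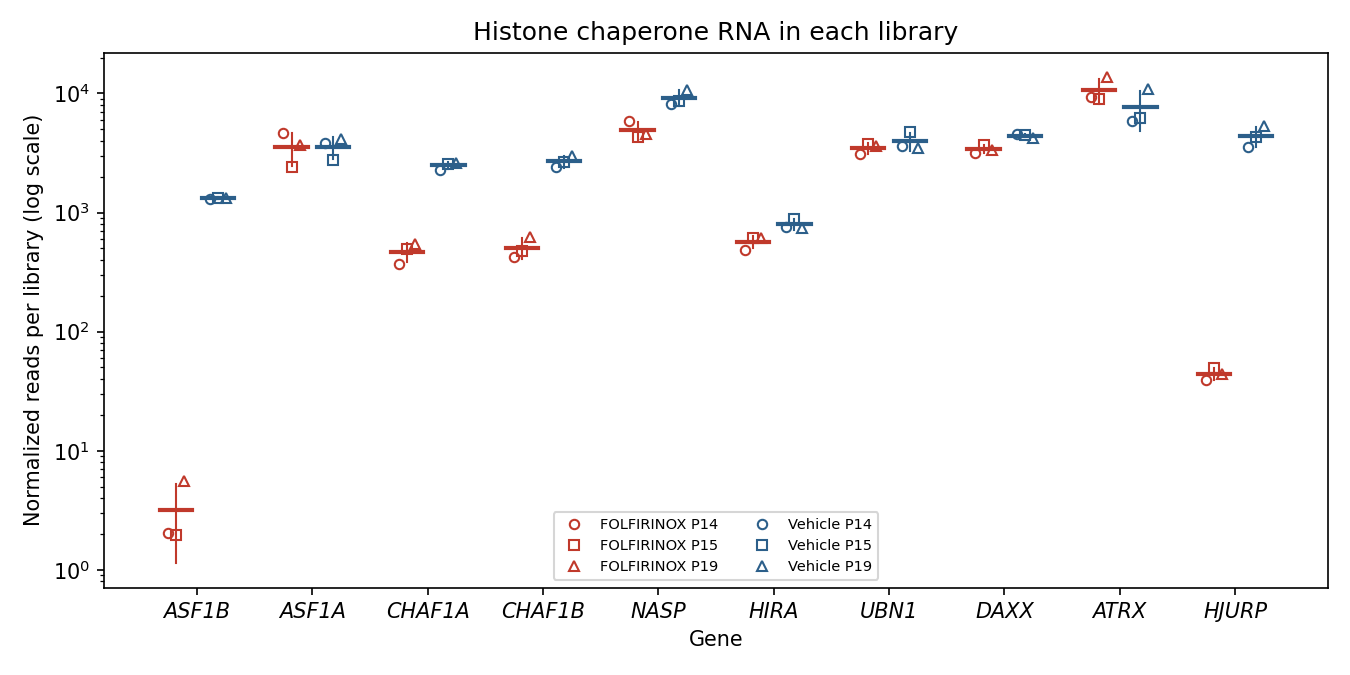
Normalized reads of each chaperone in each library on a log scale, with 3 FOLFIRINOX points left of 3 vehicle points, a horizontal bar at each mean and a vertical line for the SD. ASF1B and HJURP stand lowest with FOLFIRINOX, at means of 3.21 and 44.1 against 1320.2 and 4393 with vehicle, while the points of ASF1A, UBN1 and ATRX overlap between treatments.

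The 2 ASF1 paralogs are separate genes whose products both bind the H3-H4 dimer. ASF1B (ENSG00000105011, GRCh38 chr19:14119509-14136956, minus strand), the form tied to proliferating cells, had 2.06, 1.97 and 5.603 normalized reads in the P14, P15 and P19 FOLFIRINOX libraries, against 1299, 1332 and 1330.0 in the vehicle libraries. Every FOLFIRINOX value was far below every vehicle value, and the vehicle libraries were close to each other. ASF1B averaged 3.21 ± 2.07 with FOLFIRINOX and 1320.2 ± 18.4 with vehicle (SD, n = 3 each), and its fitted log2 difference was -8.40 ± 0.34 (SE, 95% interval -9.15 to -7.65, adjusted p = 4.1e-08 by limma). The fitted value is held back by the pseudocount of 1, since ASF1B was counted by only 2, 2 and 6 whole reads in the FOLFIRINOX libraries, against 1268, 1255 and 1423 in vehicle. The summed 10 reads against 3946 give a vehicle to FOLFIRINOX ratio of 404 in normalized reads, with a 95% interval of 219 to 843 that covers counting error only. In all genes tested, 0.0334% had a lower log2 difference.

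ASF1A (ENSG00000111875, GRCh38 chr6:118894220-118909167, plus strand), the paralog tied to HIRA-dependent deposition, had 4625, 2409.6 and 3695 normalized reads in the P14, P15 and P19 FOLFIRINOX libraries, against 3799.7, 2742 and 4135 in the vehicle libraries. The groups overlapped, and P15 was the lowest library in both. ASF1A averaged 3577 ± 1113 with FOLFIRINOX and 3559 ± 727 with vehicle (SD, n = 3 each), a log2 difference of -0.02 ± 0.25 (SE, adjusted p = 0.959 by limma). The 95% interval of -0.56 to 0.52 is what these libraries allow, and with the P number as a block it was -0.28 to 0.23. Its sign changed with the scaling of the libraries.

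Within each library, the log2 ratio of ASF1B to ASF1A was -9.79 ± 0.73 with FOLFIRINOX and -1.41 ± 0.32 with vehicle (SD, n = 3 each). The groups did not overlap, and the exact two-sided permutation p of 0.1 is the smallest that 3 against 3 libraries can give (0.2 after Benjamini-Hochberg adjustment over the 4 ratios tested). Of the reads of both paralogs, ASF1B took 0.0445%, 0.0816% and 0.151% in the P14, P15 and P19 FOLFIRINOX libraries, against 25.5%, 32.7% and 24.3% in the vehicle libraries. The highest upper bound of the exact Clopper-Pearson 95% intervals was 0.329% with FOLFIRINOX, and the lowest lower bound was 23.2% with vehicle. These bounds cover counting error only and may be too narrow, because 72.3% to 74.9% of counts under 50 in these libraries were even numbers. Per kilobase of exon, the ASF1B share was 0.0486%, 0.0891% and 0.165% with FOLFIRINOX and 27.2%, 34.7% and 26.0% with vehicle.

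CHAF1A and CHAF1B encode the large and the middle subunit of CAF-1. CHAF1A (ENSG00000167670, GRCh38 chr19:4402662-4445018, plus strand) had 371, 493 and 541 normalized reads in the P14, P15 and P19 FOLFIRINOX libraries, against 2286, 2554 and 2617 in the vehicle libraries. CHAF1B (ENSG00000159259, GRCh38 chr21:36385378-36419015, plus strand) had 426, 476 and 623 with FOLFIRINOX, against 2392, 2681 and 3009 with vehicle. For both genes P14 was lowest and P19 highest in each group, and the groups did not overlap. CHAF1A averaged 468 ± 87.3 with FOLFIRINOX and 2485 ± 176 with vehicle (SD, n = 3 each), a log2 difference of -2.42 ± 0.19 (SE, adjusted p = 5.8e-06 by limma) and 5.36-fold lower. CHAF1B averaged 508 ± 102 with FOLFIRINOX and 2694 ± 308 with vehicle, a log2 difference of -2.42 ± 0.19 (adjusted p = 7.0e-06 by limma) and 5.34-fold lower. The log2 ratio of CHAF1A to CHAF1B was -0.12 ± 0.14 with FOLFIRINOX and -0.11 ± 0.08 with vehicle (exact two-sided permutation p = 0.9), so the difference of these ratios was smaller than the spread between libraries. RBBP4, which encodes the small subunit and also serves other complexes, averaged 13706 ± 632 normalized reads with FOLFIRINOX and 13081 ± 857 with vehicle, a log2 difference of 0.07 ± 0.14. RBBP4 was chosen for mention after its values were seen.

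NASP (ENSG00000132780, GRCh38 chr1:45583846-45618904, plus strand), the H3-H4 reserve chaperone, had 5817, 4306 and 4568 normalized reads in the P14, P15 and P19 FOLFIRINOX libraries, against 8114, 8683 and 10768 in the vehicle libraries. The groups did not overlap, and P14 came closest, as the highest FOLFIRINOX library and the lowest vehicle library. NASP averaged 4897 ± 808 with FOLFIRINOX and 9188 ± 1397 with vehicle (SD, n = 3 each), a log2 difference of -0.91 ± 0.18 (SE, adjusted p = 0.0041 by limma) and 1.88-fold lower. The log2 differences within P14, P15 and P19 were -0.48, -1.01 and -1.24. In all genes tested, 8.44% had a lower log2 difference than NASP.

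HJURP (ENSG00000123485, GRCh38 chr2:233833416-233854566, minus strand), the CENP-A chaperone, had 39.1, 49.2 and 43.9 normalized reads in the P14, P15 and P19 FOLFIRINOX libraries, against 3552, 4330.0 and 5297 in the vehicle libraries. Each FOLFIRINOX value was far below each vehicle value, and vehicle was lowest in P14 and highest in P19. HJURP averaged 44.1 ± 5.04 with FOLFIRINOX and 4393 ± 874 with vehicle (SD, n = 3 each), a log2 difference of -6.59 ± 0.21 (SE, adjusted p = 7.6e-09 by limma) and 96.6-fold lower. Unlike ASF1B, HJURP was still counted by 38, 50 and 47 reads in the FOLFIRINOX libraries, against 3467, 4081 and 5667 in vehicle, so its fold is less dependent on the pseudocount. In all genes tested, 0.184% had a lower log2 difference. Its cargo CENPA averaged 8.48 ± 2.95 normalized reads with FOLFIRINOX and 1155 ± 123 with vehicle, a log2 difference of -6.97 ± 0.28 (adjusted p = 3.7e-08 by limma).

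**Figure D2:**
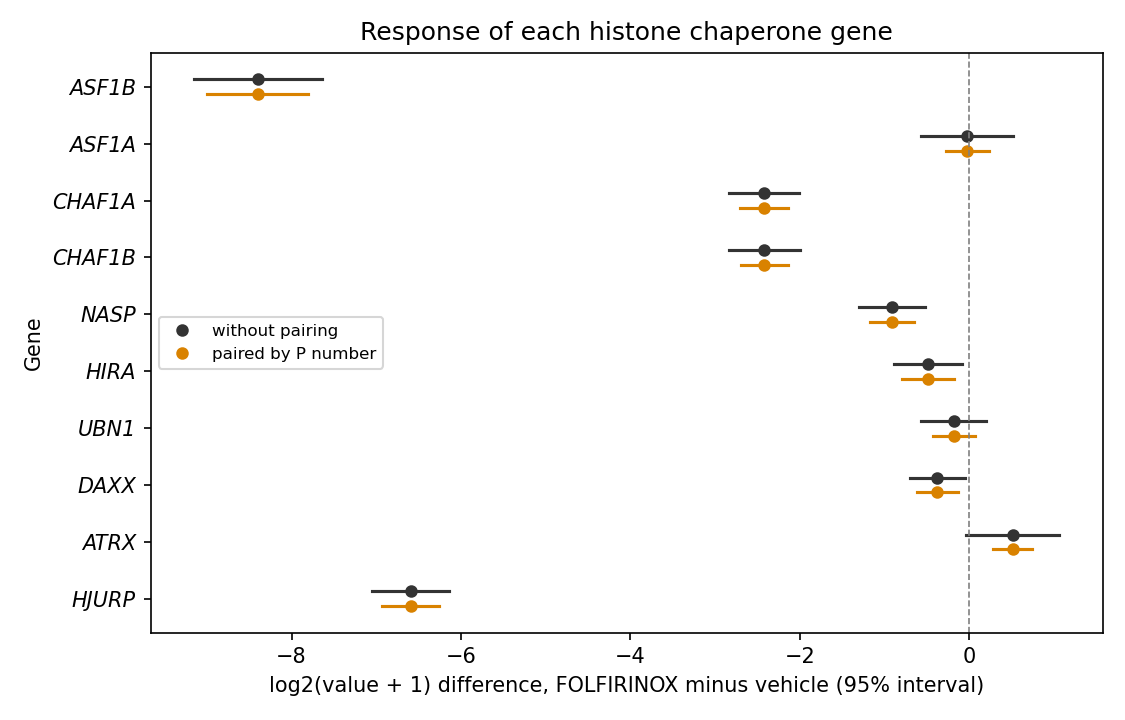
Log2 difference of FOLFIRINOX against vehicle for each chaperone, with its 95% intervals from limma without pairing and paired by P number (the block). Both intervals of ASF1B, HJURP, CHAF1A, CHAF1B, NASP, HIRA and DAXX lie below 0, although the last 2 do not pass the adjusted test without the block. Without pairing, the intervals of ASF1A, UBN1 and ATRX hold 0. With pairing, those of ASF1A and UBN1 still hold 0, and that of ATRX is 0.29 to 0.75.

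HIRA (ENSG00000100084, GRCh38 chr22:19330698-19447450, minus strand), which gives the H3.3 complex its name, had 489, 612 and 609.8 normalized reads in the P14, P15 and P19 FOLFIRINOX libraries, against 760.1, 886 and 739 in the vehicle libraries. The groups did not overlap. HIRA averaged 570.1 ± 70.5 with FOLFIRINOX and 795 ± 79.3 with vehicle (SD, n = 3 each), a log2 difference of -0.48 ± 0.18 (SE, 95% interval -0.88 to -0.08) with an unadjusted p of 0.0227 and an adjusted p of 0.0797 by limma. With the P number as a block the adjusted p was 0.0102. The level of HIRA is uncertain because 2857 of its 4299 exonic bases also belong to C22orf39 on the same strand, and C22orf39 averaged 1479 normalized reads with FOLFIRINOX and 991 with vehicle. UBN1 (ENSG00000118900, GRCh38 chr16:4846665-4882360, plus strand), a subunit that binds H3.3, had 3076, 3729 and 3595 normalized reads in the P14, P15 and P19 FOLFIRINOX libraries, against 3611, 4732 and 3514 in the vehicle libraries. The groups overlapped, and P15 was the highest library in both. UBN1 averaged 3467 ± 345 with FOLFIRINOX and 3953 ± 677 with vehicle, a log2 difference of -0.18 ± 0.17 (95% interval -0.56 to 0.20, adjusted p = 0.488 by limma). The log2 ratio of UBN1 to HIRA was 2.61 ± 0.05 with FOLFIRINOX and 2.30 ± 0.10 with vehicle, without overlap of the groups, at the smallest possible exact two-sided permutation p of 0.1 (0.2 adjusted over the 4 ratios).

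DAXX (ENSG00000204209, GRCh38 chr6:33318558-33323016, minus strand), the H3.3 chaperone of PML bodies, had 3186, 3674 and 3383 normalized reads in the P14, P15 and P19 FOLFIRINOX libraries, against 4564, 4439 and 4264 in the vehicle libraries. The groups did not overlap. DAXX averaged 3414 ± 246 with FOLFIRINOX and 4422 ± 151 with vehicle (SD, n = 3 each), a log2 difference of -0.38 ± 0.15 (SE, 95% interval -0.70 to -0.05) with an unadjusted p of 0.0282 and an adjusted p of 0.0928 by limma. The adjusted p was 0.0108 with the P number as a block, and 0.0749 with the block and libraries scaled to a common total. Its partner ATRX (ENSG00000085224, GRCh38 chrX:77504878-77786233, minus strand), the remodelling ATPase, had 9399, 9049 and 13661 normalized reads in the P14, P15 and P19 FOLFIRINOX libraries, against 5872, 6234 and 10859 in the vehicle libraries. P19 was the highest library in both groups, and the vehicle P19 value exceeded the P14 and P15 values with FOLFIRINOX, so the groups overlapped. ATRX averaged 10703 ± 2567 with FOLFIRINOX and 7655 ± 2781 with vehicle, a log2 difference of 0.52 ± 0.25 (95% interval -0.03 to 1.06) with an unadjusted p of 0.0627 and an adjusted p of 0.162 by limma.

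Within each P number, ATRX was higher with FOLFIRINOX, by log2 differences of 0.68, 0.54 and 0.33 in P14, P15 and P19. With the P number as a block its 95% interval was 0.29 to 0.75 and its adjusted p 3.7e-04 by limma, so the call depends on the pairing. Without the vehicle P19 library and with no block, the log2 difference was 0.80 and the adjusted p 0.0158. The log2 ratio of ATRX to DAXX was 1.63 ± 0.36 with FOLFIRINOX and 0.73 ± 0.54 with vehicle (SD, n = 3 each), a difference that did not pass the exact two-sided permutation test (p = 0.2, or 0.267 adjusted over the 4 ratios). Within P14, P15 and P19, that ratio was higher with FOLFIRINOX by 1.20, 0.81 and 0.67.

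**Figure D3:**
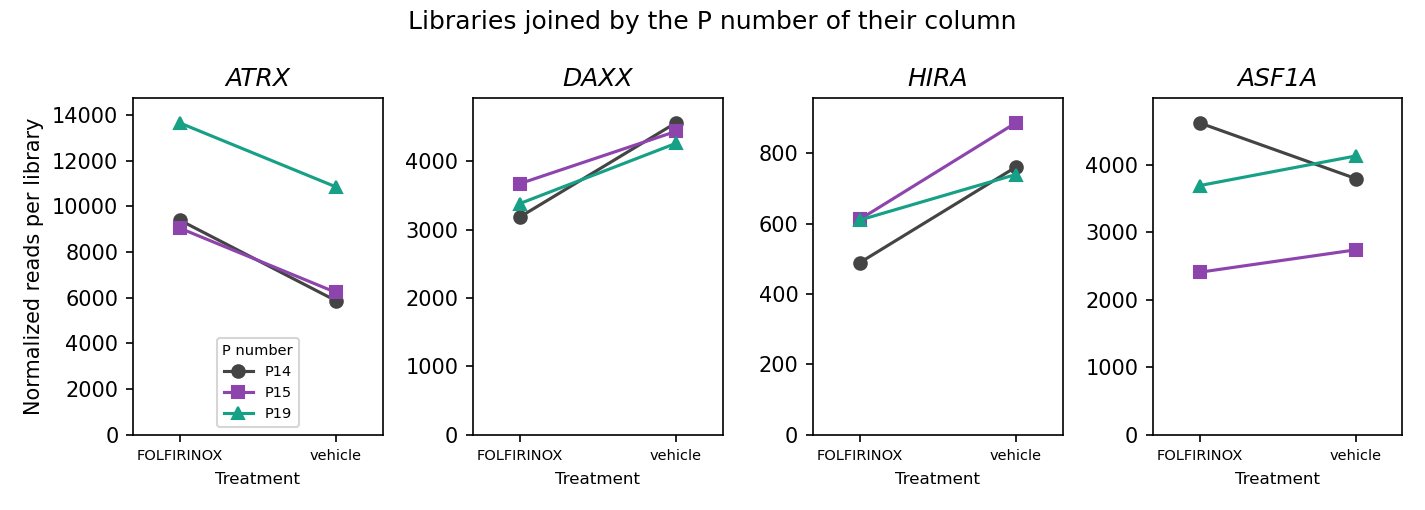
Normalized reads of ATRX, DAXX, HIRA and ASF1A, with a line joining the FOLFIRINOX and the vehicle library of the same P number. Vertical axes start at 0. The FOLFIRINOX value is the lower one in all 3 lines for DAXX and HIRA, the higher one in all 3 for ATRX, and mixed for ASF1A.

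Per kilobase of exon, the order of the members differed between treatments. The length counted was that of all annotated exons of a gene, such as 19266 bases for ATRX and 8304 for NASP. It can exceed the length of the transcripts expressed, which was not measured. Levels of different genes, and their shares of a sum, therefore compare only roughly. With FOLFIRINOX the highest levels were those of ASF1A (1421 ± 442 normalized reads per kilobase) and DAXX (1107 ± 79.7), whose ranges overlapped. NASP (589.7 ± 97.3), ATRX (556 ± 133) and UBN1 (405 ± 40.4) followed. The ranges of NASP and ATRX overlapped, and those of ATRX and UBN1 were 469.7 to 709 and 359.7 to 436. HIRA (133 ± 16.4), CHAF1A (109 ± 20.3) and CHAF1B (99.3 ± 20.0) had ranges that overlapped their neighbours, HJURP (11.5 ± 1.32) lay below them, and ASF1B (1.39 ± 0.90) was lowest (SD, n = 3 each).

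With vehicle, DAXX (1434 ± 48.9 normalized reads per kilobase), ASF1A (1414 ± 289), HJURP (1149.6 ± 229) and NASP (1106 ± 168) formed the upper levels, and each overlapped its neighbour in range. CHAF1A (578 ± 40.9), ASF1B (573 ± 7.97), CHAF1B (526 ± 60.3), UBN1 (462 ± 79.2) and ATRX (397 ± 144) also overlapped from neighbour to neighbour, and HIRA had the lowest value (185 ± 18.5, SD, n = 3 each). The place of HIRA in both orders is uncertain, because the length counted includes the 2857 of 4299 exonic bases shared with C22orf39, and how reads there were assigned is not known. The 10 members summed to 4713, 3937 and 4648 normalized reads per kilobase in the P14, P15 and P19 FOLFIRINOX libraries, against 7363, 7487 and 8629 in the vehicle libraries. ASF1B, CHAF1A, CHAF1B, NASP and HJURP, the 5 called lower, made up 18.7%, 18.8% and 17.5% of that sum with FOLFIRINOX and 47.1%, 51.8% and 51.7% with vehicle. Since these 5 were picked by their calls, that share is a description only. Most of it with FOLFIRINOX was NASP, which alone made up 14.9%, 13.2% and 11.8% of the sum, against 13.3%, 13.97% and 15.03% with vehicle.

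**Figure D4:**
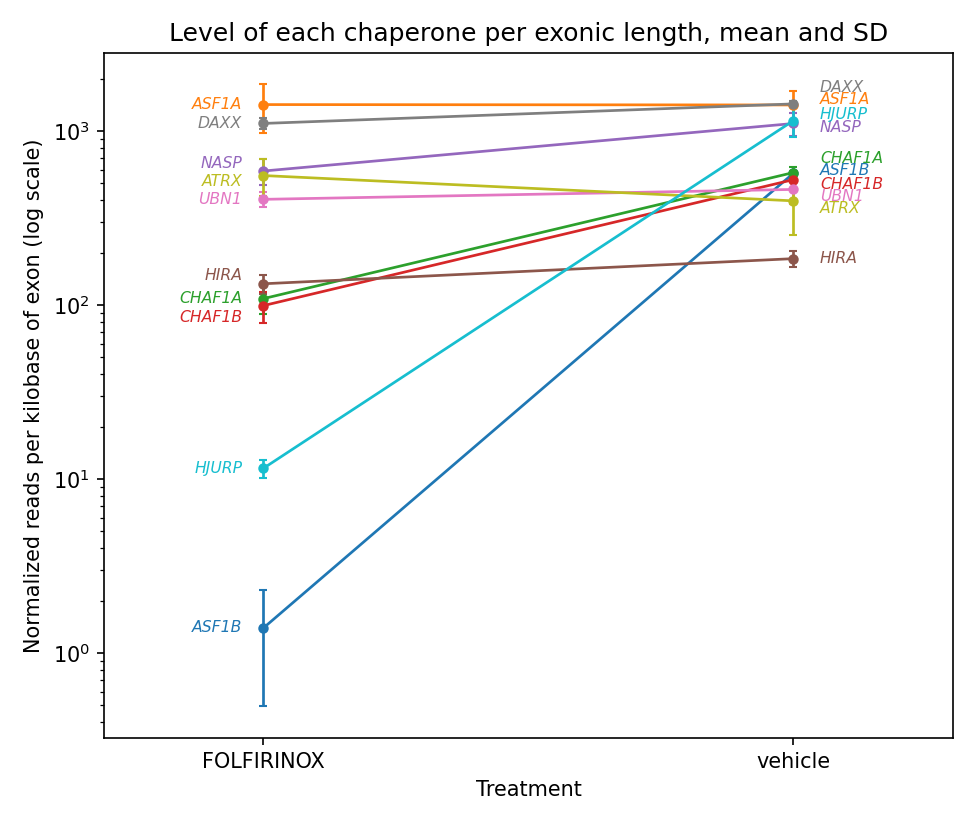
Mean and SD (n = 3) of normalized reads per kilobase of exon for each chaperone on a log scale, with FOLFIRINOX left and vehicle right and a line joining the 2 means. HJURP stands among the highest members with vehicle, at 1149.6, and second lowest with FOLFIRINOX, at 11.5.

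Other genes of these pathways were read from 4 lists of partners. For comparison with each list's counts, limma called 11.4% of all genes tested higher and 12.2% lower. Of 14 partners in H3-H4 supply, import and replication-coupled assembly, 1 was called higher and 6 lower (median log2 difference -0.39). MCM2, a subunit of the replicative helicase that also binds H3-H4, averaged 542 ± 130.2 normalized reads with FOLFIRINOX and 2696 ± 246 with vehicle, a log2 difference of -2.34 ± 0.21 (SE, adjusted p = 1.6e-05 by limma). TONSL, which reads new H4 behind the fork, averaged 110.2 ± 29.04 with FOLFIRINOX and 413 ± 33.6 with vehicle (log2 difference -1.93, adjusted p = 2.1e-04 by limma). The H3-H4 co-chaperone DNAJC9 fell by 0.97 on the log2 scale and POLE3, a histone-fold subunit of DNA polymerase epsilon, fell by 0.84. The sliding clamp gene PCNA, which recruits CAF-1 and is also a p53 target, was the 1 partner called higher, at 32392 ± 2895 normalized reads with FOLFIRINOX and 15831 ± 2451 with vehicle (log2 difference 1.04 ± 0.16, adjusted p = 0.0011 by limma). The calls of the remaining 2, RBBP7 and MMS22L (named after their values were seen), at log2 differences of -0.64 and -0.67, were lost when some single libraries were left out. RBBP7 lost its call without the P15 or the P19 FOLFIRINOX library, and MMS22L kept its call in 2 of 6 such fits.

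Of 8 partners in CENP-A deposition, 0 were called higher and 5 lower by limma (median log2 difference -1.34), and 1 was higher at an unadjusted p under 0.05. The edgeR and DESeq2 tests also gave 0 higher and 5 lower. Over all genes tested, limma called 11.4% higher and 12.2% lower. At an unadjusted p under 0.05, limma gave 3275 higher and 3233 lower of all 17951. Besides CENPA, OIP5, which encodes a Mis18 subunit, averaged 10.3 ± 7.11 normalized reads with FOLFIRINOX and 442 ± 33.0 with vehicle (log2 difference -5.46 ± 0.39, adjusted p = 3.2e-06 by limma). CENPN, whose product binds CENP-A nucleosomes, averaged 1591 ± 60.9 with FOLFIRINOX and 5978 ± 447 with vehicle (log2 difference -1.91). MIS18A, the other Mis18 subunit, averaged 571 ± 134 with FOLFIRINOX and 1848 ± 430.1 with vehicle (log2 difference -1.69, adjusted p = 3.5e-04 by limma). This list had 4 lower with limma without its trend and without both P14 libraries. It also had 4 lower without the P14 or the P15 FOLFIRINOX library, or without the P14 or the P19 vehicle library.

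Of 8 partners of HIRA, DAXX and ATRX, including PML body genes, 0 were called higher and 2 lower by limma, with 1 higher and 3 lower at an unadjusted p under 0.05 (median log2 difference -0.28). The edgeR and DESeq2 tests gave the same counts. Over all genes tested, limma called 11.4% higher and 12.2% lower. At an unadjusted p under 0.05, limma gave 3275 higher and 3233 lower of all 17951. TRIM28, a corepressor that works with ATRX and SETDB1 at repeats, averaged 6932 ± 1260.0 normalized reads with FOLFIRINOX and 11922 ± 2069 with vehicle (log2 difference -0.78, adjusted p = 0.0126 by limma). Its adjusted p was 0.0529 without the P14 vehicle library and 0.114 without both P14 libraries. RPA1, a single-stranded DNA binding protein that binds HIRA, fell by 0.54 on the log2 scale (adjusted p = 0.0218 by limma) and kept its call in 1 of 6 fits without a single library. With the P number as a block, 3 of these partners were called higher (SP100, MORC3 and UBN2, named after their values were seen) and 4 lower. Of all genes tested, 22.3% were called higher and 21.8% lower with the block. The H3.3 genes themselves did not pass the test. H3-3A averaged 5615 ± 1279 normalized reads with FOLFIRINOX and 5505 ± 818 with vehicle (log2 difference 0.02 ± 0.19, adjusted p = 0.963 by limma), and H3-3B averaged 31907 ± 4490 with FOLFIRINOX and 37785 ± 4520 with vehicle (log2 difference -0.25 ± 0.16, adjusted p = 0.307).

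Of 18 chaperones that act in transcription or on H2A-H2B, 0 were called higher and 4 lower (median log2 difference -0.21). Over all genes tested, limma called 11.4% higher and 12.2% lower. At the adjusted threshold, DESeq2 called 0 higher and 5 lower and edgeR 0 higher and 4 lower. At an unadjusted p under 0.05, each tool gave 0 higher, with 6 lower by limma, 6 by DESeq2 and 7 by edgeR. Over all 17951 genes, that threshold gave 3275 higher and 3233 lower by limma. ANP32E, which removes H2A.Z, averaged 4048 ± 923 normalized reads with FOLFIRINOX and 9037 ± 2727 with vehicle (log2 difference -1.15, adjusted p = 0.0054 by limma). SSRP1, a subunit of the FACT complex, averaged 10616 ± 671 with FOLFIRINOX and 19708 ± 876 with vehicle (log2 difference -0.89, adjusted p = 0.0012 by limma). The other FACT subunit SUPT16H, named after its values were seen, averaged 17722 ± 2117 with FOLFIRINOX and 17582 ± 4196 with vehicle (log2 difference 0.03 ± 0.19). ANP32B averaged 13104 ± 2041 with FOLFIRINOX and 23613 ± 795 with vehicle (log2 difference -0.86), and NPM3 fell by 0.68 on the log2 scale (adjusted p = 0.0187 by limma). NPM3 lost its call without the P19 FOLFIRINOX library or without the P14 vehicle library, at adjusted p values of up to 0.101. With the P number as a block, 8 of the 18 were called lower, against 21.8% of all genes tested.

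**Figure D5:**
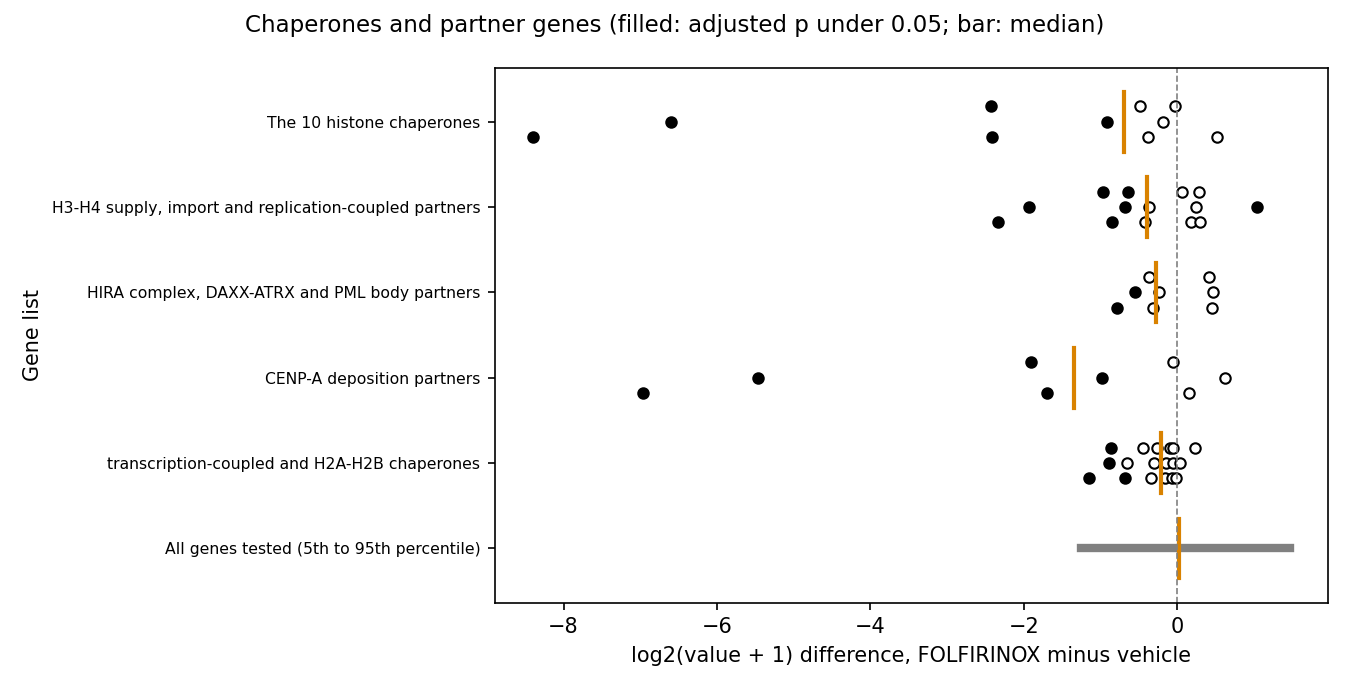
Log2 difference of FOLFIRINOX against vehicle for the 10 chaperones and every gene of the 4 partner lists, with filled points for genes called by limma, a line at each list's median and a grey bar for the 5th to 95th percentile of all genes tested. The lowest partners are CENPA and OIP5 at -6.97 and -5.46, and PCNA at 1.04 is the only filled point above 0.

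In the authors' deposited table of the same comparison, 2208 genes were higher and 2300 lower at an adjusted p under 0.05, with 0 members higher and 5 lower. DESeq2 as run here without pairing gave the same log2 fold changes to within 3.34e-10. The deposited values are therefore the same fit and no separate support. The authors' deposited table gave log2 fold changes of -8.66 ± 0.50 (SE) for ASF1B, -6.64 for HJURP, -2.41 for both CHAF1A and CHAF1B, and -0.91 for NASP. The authors' deposited table gave adjusted p values of 0.0896 for HIRA, 0.1197 for DAXX and 0.195 for ATRX.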

How the data were processed

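RNA-seq libraries were made with poly(A) enrichment and a KAPA HyperPrep kit, per the labels' protocols. Per the submitters' processing notes, the tools included STAR 2.7.11b and featureCounts 2.0.6, with DESeq2 also named and FastQC 0.12.1 for quality control, on GRCh38. Neither the annotation release nor the strand setting is given in the sources used, and reads shared by overlapping or antisense genes therefore cannot be separated. The authors deposited a table of normalized gene counts (a signal: counts divided by a size factor per library) beside log2 fold changes, the scores of their test (Wald statistics and base means) and p-values. Whole reads were recovered by dividing each column by the value of 1 read. Of the values, 100% were whole within 0.001. No label holds the P number of the column names, and a column was therefore tied to its treatment but to no numbered sample.

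Groups were compared with limma 3.58.1 and its trend option on log2(normalized count + 1) in R 4.3.3, for genes with at least 10 normalized reads in 3 libraries, with Benjamini-Hochberg adjustment over all 17951 and calls at 0.05. Fold changes are on that scale, which understates low genes. Alternatives were edgeR 4.0.16 and DESeq2 1.42.0 on the recovered reads (0 members higher and 5 lower each), other scalings, pseudocounts and filters, libraries left out, and the P number as a block. Same-numbered libraries deviated together (r = 0.257, 0.282 and 0.288, each above 0.1, against -0.263 to -0.027 between numbers), so the numbers were taken as pairs. Deviations were taken from each group's mean, so positive same-number values force negative values between numbers. The values between numbers are therefore no separate support for the pairing. The pairing comes from the column names and these correlations. Scripts were tested on simulated data. Exonic lengths and positions came from GENCODE 29 and promoters from RefSeq. Named genes were the members, MKI67, CDKN1A, H3-3A, H3-3B, CENPA and, for each partner list and direction, up to 4 called genes with the largest log2 difference. Named outside this rule, after their values were seen, were RBBP4, RBBP7, MMS22L, SUPT16H, SP100, MORC3 and UBN2, besides the cell type markers and C22orf39, which overlaps HIRA. One gene is counted in its list and not reported here. The members and lists were chosen with earlier results of these data known.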

Additional observations from a re-analysis of the deposited data

How the results depend on the processing

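ASF1B, HJURP, CHAF1A, CHAF1B and NASP kept their direction and their call in each of 16 alternatives without a block, with the adjusted p of NASP at most 0.0235. HIRA (0.0526 to 0.246) and DAXX (0.0643 to 0.278) passed in none of them and ATRX passed in 1. With the replicate block, the counts of all genes were 3995 higher and 3918 lower. Combined with the block, and chosen after seeing the data, a common total gave 5000 higher and 2975 lower, edgeR gave 3560 higher and 4207 lower, and TMM gave 3751 higher and 4150 lower. Without both P14 libraries the counts were 1162 and 1336, and without single libraries 1316 to 2262 higher and 1540 to 2206 lower. Members called higher were 1 under every fit with the block and 0 to 1 without single libraries, where the 1 was ATRX without vehicle P19. The CENP-A list had 1 higher with a common total, the block, the block with edgeR and the block with TMM, 2 with the block and a common total, and 0 to 1 without single libraries. The H3-H4 supply list had 3 higher with the block and a common total. The HIRA and DAXX list had 1 higher with a common total, 3 under every fit with the block and 0 to 2 without single libraries. In that list, 1 was lower with a common total, with limma without its trend, without both P14 libraries and whichever single library was left out, and 4 with the block alone, with edgeR or with TMM. The transcription list had 1 higher with the block and a common total, and 8 lower with the block, 9 with edgeR and 9 with TMM added. The ASF1A difference turned to 0.0883 with a common total (with and without the block) and 0.0072 with DESeq2, and spanned -0.2323 to 0.238 without single libraries. A common total moved the median log2 difference of all genes to 0.13, against 0.02 with the deposited scaling. The difference in the CHAF1A to CHAF1B ratio spanned -0.0881 to 0.0386 without single libraries and was 0.0586 without both P14 libraries. The HIRA call under the block held with a common total, edgeR and TMM (adjusted p 0.0053 to 0.04995), and that of DAXX was lost with a common total. The block changed no member's call other than those of HIRA, DAXX and ATRX. The causes were not tested. Depth limits ASF1B with FOLFIRINOX, at 2 to 6 reads. Its interval of 219 to 843 covers counting error only and may be too narrow, since these counts are even, as are most low counts.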
